A study of Mus musculus with 3 samples.

Results

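The genes described here are 10 feedback and response genes of the FGF/ERK pathway, measured by RNA-seq in mouse ALSCs. They are the ETS transcription factor genes *Etv4* and *Etv5*, the MAP kinase phosphatase genes *Dusp4*, *Dusp6*, and *Dusp9*, the Sprouty genes *Spry1*, *Spry2*, and *Spry4*, and the Spred genes *Spred1* and *Spred2*. The members were chosen by gene name for their known place in the pathway, without a threshold on their level. Earlier results of these data were known when they were chosen. All 10 were found among the 55421 named genes. ALSCs are primed pluripotent stem cells grown out from the epiblast of embryos at embryonic day 6.5, from ICR females mated with males that carry the GOF/GFP reporter (GFP under an *Oct4* promoter construct). They were kept in chemically defined N2B27 medium with Activin A and LIF and without added FGF. Polyadenylated RNA was sequenced in 3 libraries (replicates 1, 2, and 3), and all 3 belong to this 1 condition. The study calls its RNA-seq replicates biological, and the sources used here do not state whether they came from separate lines, cultures, or passages, so what the spread between them covers is not known.

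In the FGF/ERK pathway, an FGF ligand binds its receptor, adaptors activate RAS, and the RAF, MEK, and ERK kinases are switched on in turn. ERK activity raises transcription of genes whose products then restrain it. Sprouty and Spred proteins act upstream at the level of receptor, RAS, and RAF, MAP kinase phosphatases remove phosphate from ERK itself, and the PEA3 factors (*Etv1*, *Etv4*, and *Etv5*) carry the signal to further genes. In the epiblast the pathway is known for its role in leaving naive pluripotency, and these genes are often read as a transcript record of ERK activity. Transcript levels do not measure ERK phosphorylation, which was not assayed in these libraries.

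The libraries held 18088505, 18724038, and 18037342 counts on named genes. Levels are given as FPKM, here the count divided by the gene's length in kilobases and by the library's total in the usual scale of this unit, so that genes of different length can be compared. Of 6 epiblast markers, 6 reached 1 FPKM in each of the 3 libraries, with *Pou5f1* (Oct4) at 648 ± 25.3 FPKM (SD, n = 3). Of 5 naive markers, 5 trophoblast markers, and 5 extraembryonic endoderm markers, 0 reached that level. Their summed levels were 1.54 to 2.18, 1.2 to 1.48, and 0.455 to 0.587 FPKM. Of 6 fibroblast markers only *Col1a1* did (5.04 ± 1.11 FPKM), the sum over the list was 4.18 to 6.5 FPKM, and *Col3a1*, *Dcn*, *Lum*, and *Postn* stayed at or under the 3 counts that a count of 0 allows. The limit covers only the error of counting, since the reads carry no molecular identifiers and may be copies of one another. In bulk RNA, a level shared by all cells and a higher level in some of them cannot be told apart.

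Sequences are given for *Etv5*, *Dusp6*, and *Spred2*, for the reasons stated with each. *Etv5*, the member with the highest level, is also the member for which the study lists RT-qPCR primers. Both primers lie in coding exons of *Etv5*, on the minus strand of chromosome 16 (GRCm38), the forward primer in exon 11 (chr16:22392739-22392757) and the reverse primer in exon 12 (chr16:22386830-22386849) of 13. They are printed because the product of 132 bases spans this junction and because the same letters also occur in the separate gene *Gm4798*, which bears on the count of *Etv5*. They are given 5′ to 3′ in lower case, and the reverse primer is the reverse complement of the transcript.
Etv5 forward primer: gctgtggcagttccttgtc
Etv5 reverse primer: ttcttctggataccccaacg
Both primers matched *Etv5* and *Gm4798* without a mismatch. The best site in *Etv4* had 4 mismatches for the forward and 2 for the reverse primer, and the best site in *Etv1* had 5 and 2. *Gm4798* held 13, 27, and 16 counts in the 3 libraries, against 2500, 3396, and 3335 for *Etv5*.

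Upstream sequence is shown for *Dusp6* and *Spred2*, because they are the members in whose promoters the ETS letters AGGAAG were found. RefSeq promoter windows (GRCm38.p6) were matched for 6 members, *Etv5* (with 2 start sites), *Dusp6*, *Spry1*, *Spry2*, *Spred1*, and *Spred2*. *Etv4*, *Dusp4*, *Dusp9*, and *Spry4* had no window in the table. The 250 bases before each start were searched on both strands. The *Dusp6* window is chr10:99262981-99263230, and for *Spred2* the part outside the gene as the authors' table places it is shown, chr11:19924192-19924374, both on the plus strand. They are written 5′ to 3′ on that strand, with AGGAAG or its reverse complement CTTCCT in capitals. The shorter letters GGAA were not searched for on their own. They also occur elsewhere in these windows and are not marked there.
Dusp6: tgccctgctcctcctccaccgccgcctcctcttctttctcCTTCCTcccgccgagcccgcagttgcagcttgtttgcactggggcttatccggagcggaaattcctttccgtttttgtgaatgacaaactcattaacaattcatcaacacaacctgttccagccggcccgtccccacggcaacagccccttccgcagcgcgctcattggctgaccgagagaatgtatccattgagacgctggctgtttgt
Spred2: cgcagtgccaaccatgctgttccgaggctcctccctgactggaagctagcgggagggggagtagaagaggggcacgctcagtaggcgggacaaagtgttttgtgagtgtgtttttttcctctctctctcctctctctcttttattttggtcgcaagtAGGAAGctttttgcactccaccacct
Counted back from the RefSeq start site, the leftmost base of the match lay at position -210 in *Dusp6*, on the minus strand. In *Spred2* it lay at position -93 on the plus strand, and a further match lay at -32 on the minus strand, inside the gene as the table places it. AGGAAG was found in 29.5% of all 32851 RefSeq promoters, so its presence in 2 of the 6 members is a description of these windows. The longer ETS letters CCGGAAG (6.91% of all promoters), the cyclic AMP response element TGACGTCA (1.55%), the AP-1 letters TGANTCA (6.75%), and the STAT letters TTCCNGGAA (0.913%) were not found in the members' windows. CCGGAAG overlaps AGGAAG in its GGAAG letters. The windows were rich in G and C, with a GC content of 56.0% to 71.2% against a median of 52.4% over all promoters, and held 12 to 31 CpG dinucleotides against a median of 6.

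The 10 members spanned a wide range of levels in ALSCs. *Etv5* was highest at 41.0 ± 6.34 FPKM and *Spry4* lowest at 1.02 ± 0.274 FPKM (SD, n = 3), and the median over the members was 13.7 FPKM. A level of 1 FPKM was reached in each library by 9 of 10 members, against 20.1% of all named genes and 45.7% of protein-coding genes. The exception was *Spry4*, which was below 1 FPKM in replicate 1 only. Over the 11125 genes that reached 1 FPKM in each library, the median was 8.21 FPKM and the quartiles 3.55 and 20.6 FPKM. *Etv5* and *Dusp9* lay above the upper quartile, 4 members between the median and the upper quartile, *Dusp6* and *Spry1* between the lower quartile and the median, and *Dusp4* and *Spry4* below the lower quartile. As a place among those genes, *Spry2* was higher than 72.1%, *Spred2* than 70.0%, *Etv4* than 65.3%, *Spred1* than 63.6%, *Dusp6* than 47.8%, *Spry1* than 32.1%, and *Dusp4* than 12.0% of them.

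**Figure D1:**
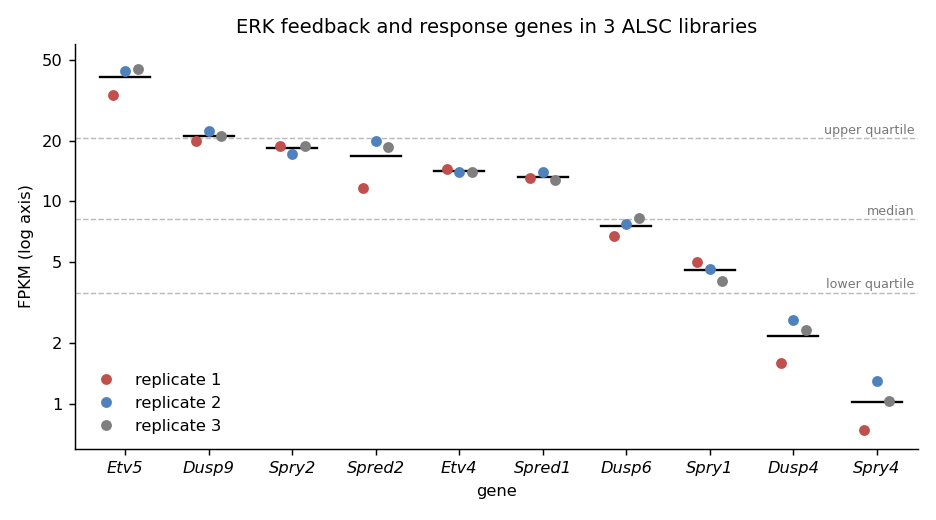
FPKM (log axis) of the 10 members in each ALSC library, with points for replicates 1, 2, and 3 and a black bar for their mean. Dashed lines are the quartiles and the median of all genes that reached 1 FPKM in each library (3.55, 8.21, and 20.6 FPKM), and the members run from *Etv5* at 33.7 to 45.1 FPKM down to *Spry4* at 0.744 to 1.29 FPKM.

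*Etv5* (ENSMUSG00000013089; GRCm38 chr16:22381309-22439719, minus strand) encodes a PEA3 factor that is a direct transcriptional output of FGF signaling in many tissues. Its level was 33.7, 44.2, and 45.1 FPKM in replicates 1, 2, and 3, so replicate 1 lay below the other two. It was higher than 86.9% of the genes that reached 1 FPKM. By sequence, 73.2% of the 50-base words of its transcript occur in no other gene and the rest are shared with *Gm4798*, whose counts are given above, so the count of *Etv5* is uncertain by the reads that cannot be placed between them.

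*Etv4* (ENSMUSG00000017724; chr11:101769742-101785371, minus strand), the second PEA3 member, stood at 14.5, 13.9, and 14.0 FPKM. *Etv5* was 2.32, 3.18, and 3.22 times as high as *Etv4* in the 3 libraries. Within the family, *Etv5* made up 71.6 ± 3.72%, *Etv4* 25 ± 3.41%, and *Etv1*, at a level of 1.93 ± 0.226 FPKM, 3.41 ± 0.470% of the summed FPKM (SD, n = 3). The order *Etv5*, *Etv4*, *Etv1* was the same in each library.

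The phosphatase members fell at 3 separate levels. *Dusp9* (ENSMUSG00000031383; chrX:73639419-73643514, plus strand), which encodes a cytoplasmic phosphatase with a preference for ERK, was at 19.8, 22.2, and 21.2 FPKM. *Dusp6* (ENSMUSG00000019960; chr10:99263231-99267489, plus strand), the classical ERK-specific cytoplasmic phosphatase, was at 6.76, 7.72, and 8.27 FPKM. *Dusp4* (ENSMUSG00000031530; chr8:34807297-34819894, plus strand), a nuclear phosphatase, was at 1.59, 2.59, and 2.31 FPKM. The ranges of the 3 genes did not overlap. *Dusp9* exceeded *Dusp6* by a ratio of 2.93, 2.88, and 2.56, and *Dusp6* exceeded *Dusp4* by a ratio of 4.24, 2.98, and 3.58.

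Among the 10 MAP kinase phosphatase genes, which summed to 51.7 ± 4.49 FPKM, *Dusp9* held the largest share at 40.8 ± 1.64%. *Dusp6* followed with 14.7 ± 0.628%. *Dusp7*, the other cytoplasmic ERK phosphatase, held 12.3% at 6.32 ± 0.465 FPKM and was 0.889, 0.789, and 0.829 times as high as *Dusp6* in the 3 libraries. The nuclear phosphatase genes *Dusp1* (5.77 ± 0.757 FPKM) and *Dusp5* (2.59 ± 0.166 FPKM) were higher on average than the member *Dusp4*, which made up 4.15 ± 0.667% of the sum, while *Dusp2* (0.535 ± 0.138 FPKM) was lower. The ranges of *Dusp5* (2.44 to 2.76 FPKM) and *Dusp4* (1.59 to 2.59 FPKM) overlapped. Of the phosphatases that act mainly on p38 and JNK, *Dusp16* was at 4.01 ± 0.716, *Dusp10* at 1.53 ± 0.254, and *Dusp8* at 0.127 ± 0.0522 FPKM. So 8 of the 10 genes reached 1 FPKM in all libraries, and *Dusp2* and *Dusp8* did not.

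**Figure D2:**
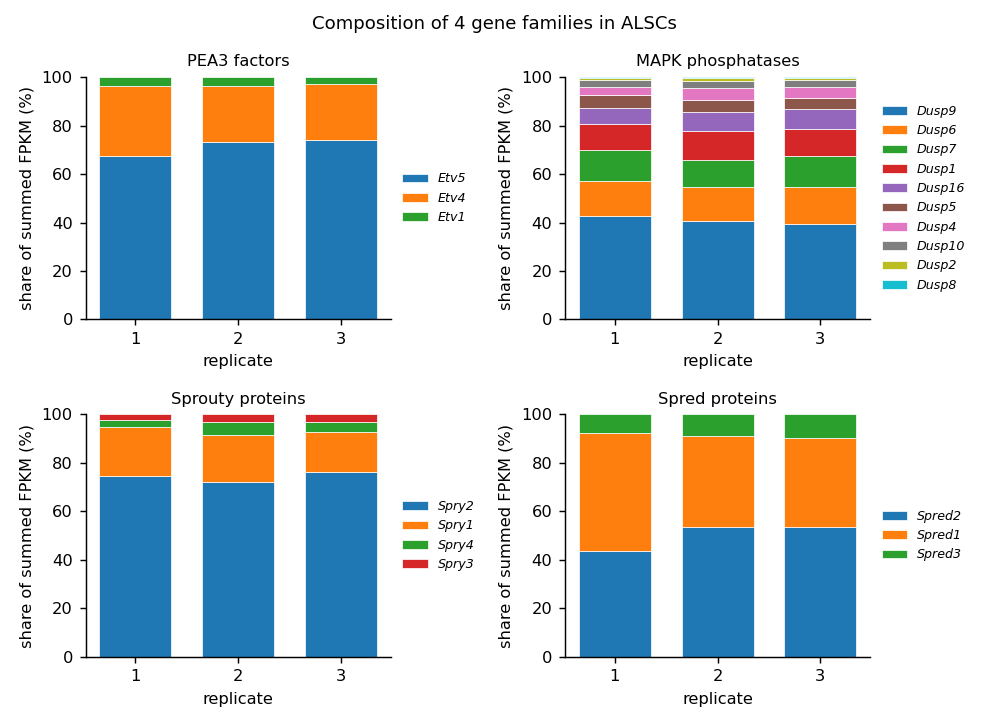
Share of the summed FPKM (%, stacked bars from 0 to 100) that each gene of 4 families took in replicates 1, 2, and 3 of ALSCs. *Etv5*, *Dusp9*, and *Spry2* formed the largest block of their families in each library, while *Spred1* and *Spred2* changed places between replicate 1 and replicates 2 and 3.

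The Sprouty members also differed by level. *Spry2* (ENSMUSG00000022114; chr14:105891947-105896819, minus strand) was at 18.9, 17.2, and 18.8 FPKM. *Spry1* (ENSMUSG00000037211; chr3:37639947-37644598, plus strand) was at 5.04, 4.63, and 4.03 FPKM. *Spry4* (ENSMUSG00000024427; chr18:38586247-38601415, minus strand) was at 0.744, 1.29, and 1.04 FPKM, from 64, 115, and 89 counts. The levels of the 3 genes, all of which encode membrane-linked inhibitors of signaling from receptor tyrosine kinases to ERK, did not overlap.

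*Spry2* was 3.75, 3.71, and 4.67 times as high as *Spry1*, and 25.4, 13.3, and 18.1 times as high as *Spry4*. *Spry2* made up 74.4 ± 2.13% of the Sprouty sum, *Spry1* 18.6 ± 1.96%, *Spry4* 4.20 ± 1.24%, and *Spry3*, at 0.679 ± 0.0856 FPKM, 2.77%. The sum itself was 24.6 ± 0.734 FPKM. For *Spry4* the exact Poisson 95% interval was 0.573 to 0.950 FPKM in replicate 1, 1.07 to 1.55 in replicate 2, and 0.833 to 1.28 in replicate 3 (counting error only), so the intervals of replicates 1 and 2 did not touch. *Spry1* overlaps the antisense gene *Gm42922*, which held 1, 11, and 4 counts against 265, 252, and 211 for *Spry1*. Whether counting used strand is not given in the sources used here, and reads of the shared stretch cannot be told apart without it. The same holds for the relatives *Dusp1*, *Dusp5*, *Dusp8*, and *Spred3*, whose exons overlap genes on the other strand.

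Of the Spred members, *Spred1* (ENSMUSG00000027351; chr2:117121374-117182279, plus strand) was at 13.1, 14.0, and 12.7 FPKM. Its product brings the RAS inactivator neurofibromin to the membrane. *Spred2* (ENSMUSG00000045671; chr11:19924375-20024026, plus strand), a close relative with the same kind of role, was at 11.7, 19.98, and 18.6 FPKM. The libraries of *Spred2* did not form 1 narrow range, since replicate 1 lay well below the others. The ratio of *Spred2* to *Spred1* was 0.896 in replicate 1 and 1.43 and 1.46 in replicates 2 and 3, so which of the pair was higher depended on the library. Their shares of the Spred sum were 50.2 ± 5.67% and 41.0 ± 6.73%, and *Spred3*, at 2.94 ± 0.780 FPKM, held 8.83 ± 1.11%.

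By mean level the members ran in the order *Etv5*, *Dusp9*, *Spry2*, *Spred2*, *Etv4*, *Spred1*, *Dusp6*, *Spry1*, *Dusp4*, *Spry4*. Of the 45 pairs of members, 40 had ranges over the 3 libraries that did not overlap. The share of such pairs among all genes was not computed, so this count only describes the members. The 5 pairs that overlapped were *Spred2* with *Dusp9*, *Spry2*, *Etv4*, and *Spred1*, and *Etv4* with *Spred1*. In the order of means, *Spry2* and *Spred2*, *Spred2* and *Etv4*, and *Etv4* and *Spred1* are thus neighbours that did not differ beyond their spread. These are ranges and not tests, since the smallest p of an exact two-sided sign test over 3 libraries is 0.25.

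The spread between the libraries was then set against counting error, with a chi-square test of each gene's counts against edgeR's TMM library sizes (Benjamini-Hochberg over 16944 genes). Of the 10 members, 6 varied by more than counting error, against 47.2% of all genes tested and 64.7% of genes that averaged 100 counts or more, and 60.6% of genes that reached 1 FPKM in each library, so the members' count was near the background of well-counted genes. A small p in this test says that libraries differ, not conditions, and makes no allowance for ordinary variation between cultures. The members' median coefficient of variation was 10.6%, and that of genes that reached 1 FPKM in each library was 10.8%.

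*Spred2* (adjusted p = 8.51e-34) and *Etv5* (adjusted p = 1.11e-21) varied most by this chi-square test. *Spry4* (0.0144), *Dusp4* (0.0201), *Spry1* (0.0337), and *Spry2* (0.0358) also passed the threshold of 0.05 on the adjusted p, and the adjusted p of *Spred1* (0.115), *Dusp6* (0.117), *Etv4* (0.201), and *Dusp9* (0.489) did not. Replicate 1 decided this count. Without it 0 of 10 members varied, against 8.11% of all genes. By the same chi-square test the unadjusted p was under 0.05 for *Spry2* (0.0485) and *Spred1* (0.0274), and for 21.2% of all genes. Without replicate 2, 4 of 10 members varied, against 42.9% of all genes, and without replicate 3, 5 of 10, against 46.7%. With edgeR's goodness of fit, which allows for a common spread between libraries, 0 of 10 members varied at adjusted p below 0.05 and 0 at an unadjusted p below 0.05, against 1.04% and 9.21% of all genes.

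**Figure D3:**
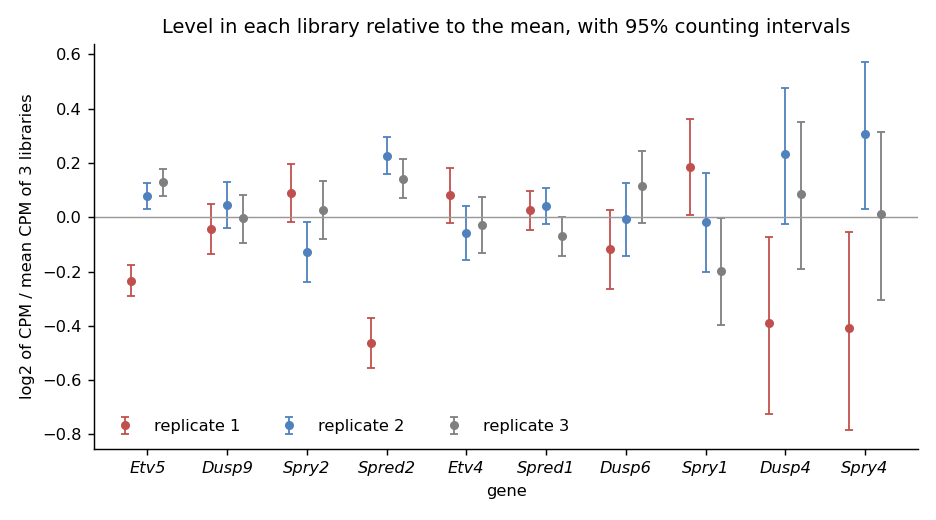
Log2 of the composition-corrected CPM of each member in each library over its mean of the 3 libraries, with bars for exact Poisson 95% intervals of the count. Replicate 1 of *Spred2* and *Etv5* lies below the other 2 libraries with intervals that do not touch, while the intervals of the libraries of *Dusp9*, *Spred1*, *Etv4*, and *Dusp6* overlap.

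The direction of replicate 1 was not the same for all members. On the log2 scale of composition-corrected CPM, replicate 1 was lower than the mean of replicates 2 and 3 by a log2 ratio of -0.65 ± 0.05 for *Spred2* and -0.34 ± 0.03 for *Etv5* (± counting SE). The low-count members *Spry4* and *Dusp4* showed -0.58 ± 0.21 and -0.55 ± 0.19. *Spry1* went the other way with 0.29 ± 0.11. Over all genes that averaged 100 counts or more, the quartiles of this ratio were -0.25 and 0.23. *Spred2*, *Etv5*, and *Dusp4* lay below the lower quartile and *Spry1* above the upper one. The ratio of *Spry4* was also below the lower quartile, but this gene averaged under 100 counts and is not in that set. Replicate 1 was the lowest library for 6 of 10 members, against 40.9% of all genes, and 4 of 10 members, *Etv5*, *Dusp4*, *Spry4*, and *Spred2*, both varied and were lowest there, against 22.1% of all genes.

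This ratio moved with gene length across the table, from a median of 0.39 in the shortest of 20 length groups to -0.53 in the longest. After the trends on gene length and on GC content were subtracted, the ratio was -0.57 for *Spred2*, -0.31 for *Etv5*, -0.70 for *Dusp4*, and 0.20 for *Spry1*. These kept their sign. So did *Etv4* (0.12 to 0.05), *Dusp6* (-0.17 to -0.29), *Dusp9* (-0.06 to -0.19), and *Spred1* (0.04 to 0.11). The counting SE of these ratios was 0.06, 0.09, 0.06, and 0.04, in the same order. For *Etv4* after the subtraction, and for *Dusp9* and *Spred1* before it, the ratio was about as small as this error. No direction is therefore given for *Etv4*, *Dusp9*, and *Spred1*. *Spry4* averaged under 100 counts and was not in the set used for the trends. The ratio turned from 0.14 to -0.16 for *Spry2*, so no direction can be given for that gene. The share of mitochondrial counts was 1.36% in replicate 1 and 1.19% and 1.2% in the others, and its part in these differences was not tested.

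The rest of the pathway was read from 5 lists with 54 genes, of which 42 reached 1 FPKM in each library, against the 45.7% of protein-coding genes given above. Of the 50 listed genes with enough counts for the chi-square test, 29 varied between libraries (58.0%), against 47.2% of all genes tested and 60.6% of genes that reached 1 FPKM in each library. As for the members, this count was 0 without replicate 1, against 8.11% of all genes, and 0 with edgeR's goodness of fit, against 1.04%. At an unadjusted p below 0.05 these tests gave 10 and 4 of the 50 genes, near the 21.2% and 9.21% of all genes. The counts of varying genes given below for single lists thus rest on replicate 1 as well. Of 10 FGF ligand and receptor genes, 5 reached 1 FPKM in each library, and 3 of the 9 tested varied between libraries (33.3%). The ligand gene *Fgf8* was highest at 48.9 ± 3.90 FPKM, the receptor gene *Fgfr1* was at 18.8 ± 2.32 FPKM, and the ligand gene *Fgf4* was at 4.35 ± 0.502 FPKM. *Fgf2* held 1, 1, and 3 counts and counted as not detected.

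Between receptor and ERK, all 8 adaptor and exchange factor genes and all 10 kinase cascade genes listed reached 1 FPKM in each library. *Grb2* (46.5 ± 3.73 FPKM), *Shc1* (39.4 ± 6.55 FPKM), and *Ptpn11* (25.6 ± 6.12 FPKM), which link activated receptors to RAS, led the adaptors. The ERK gene *Mapk3* (61.2 ± 3.14 FPKM), the MEK gene *Map2k1* (57.1 ± 1.68 FPKM), and the RAS gene *Nras* (30.2 ± 0.817 FPKM) led this list. *Mapk3* and *Map2k1* were on average higher than all 10 members, and *Nras* was below *Etv5* and above the other members. The median of the cascade list was 23.9 FPKM, against 13.7 FPKM for the members.

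Of 10 other negative regulators of the pathway, 9 reached 1 FPKM in each library. The exception, *Rasal2* (1.09 ± 0.396 FPKM), was named after its values were seen. *Il17rd*, also called Sef, a membrane inhibitor of FGF signaling, was highest at 10.6 ± 2.95 FPKM, followed by the RAS GTPase activators *Dab2ip* (7.45 ± 1.83 FPKM) and *Rasa3* (7.37 ± 1.55 FPKM). By the chi-square test 9 of the 10 listed genes varied between libraries, against 60.6% of genes that reached 1 FPKM in each library. The count was 0 without replicate 1 and 0 with edgeR's goodness of fit. At an unadjusted p below 0.05 these tests gave 4 and 3 of 10, against 21.2% and 9.21% of all genes. The sum of the list ran from 38.0 to 58.4 FPKM. Gene lengths in the list ran from 3582 bases (*Errfi1*) to 15856 bases (*Rasa2*). The replicate 1 ratio moved with gene length, and the 60.6% was not matched for it. The part of length in this count and sum was not tested. Of the members, *Etv5*, *Dusp9*, *Spry2*, *Spred2*, *Etv4*, and *Spred1* were on average higher than *Il17rd*.

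Of 16 other ERK response genes, 10 reached 1 FPKM in each library. The immediate early genes *Ier3* (52.6 ± 2.96 FPKM) and *Ier2* (49.9 ± 4.53 FPKM) and the cyclin gene *Ccnd1* (22.8 ± 3.15 FPKM) led, and *Ier3* and *Ier2* were on average above *Etv5*. The transcription factor genes *Egr2* (0, 0, and 0 counts) and *Egr3* (2, 0, and 0 counts) were not detected. The median of the list was 2.55 FPKM, below that of the members. By the chi-square test 6 of its 13 tested genes varied between libraries (46.2%). The share was 47.2% over all genes tested and 60.6% over genes that reached 1 FPKM in each library.

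**Figure D4:**
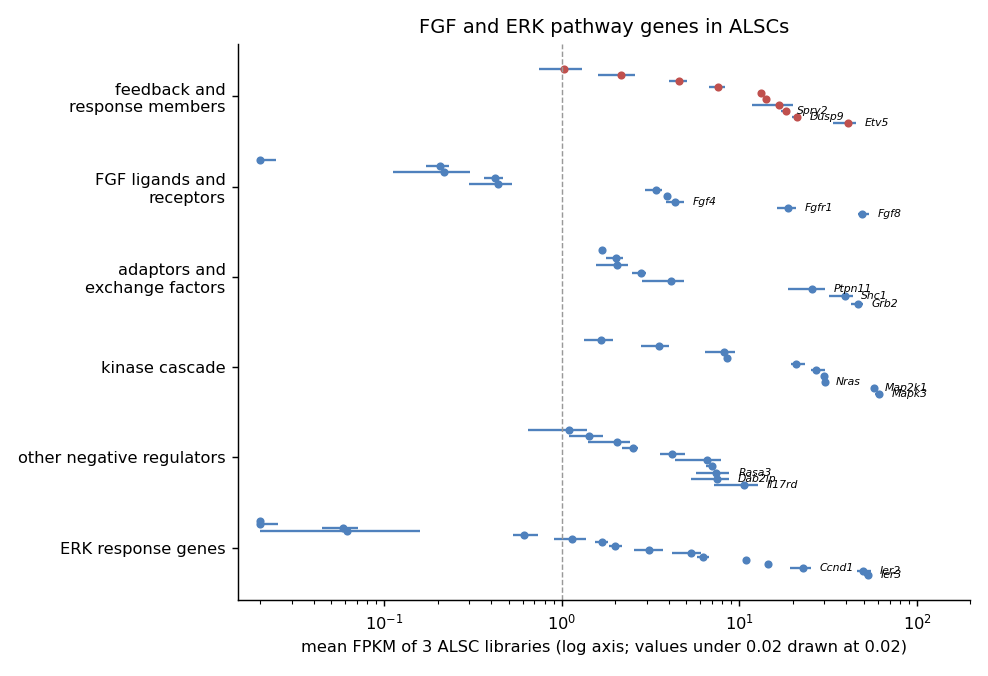
Mean FPKM (points, log axis, values under 0.02 drawn at 0.02) and range over 3 ALSC libraries (lines) of the 10 members, in red, and of the genes of 5 pathway lists, in blue. The dashed line is 1 FPKM, and the 10 kinase cascade genes drawn have means to its right, while the lists of ligands and receptors and of ERK response genes spread to both sides.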

How the data were processed

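The 1 deposited table gives raw, unnormalized counts for each gene as the authors made them, beside its Ensembl identifier, position, and length. Reads were mapped to GRCm38/mm10, and the submitters' processing notes name HISAT2 2.0.5. The counting program, annotation, and strand setting are not given in the sources used here. Of the named genes, 55154 were found in GENCODE M21, and 99.3% of those had a length equal to their summed exons. The 317 rows without a gene name (0.165% to 0.182% of counts) were left out. The table holds 3 further count columns that match no sample of this series and were used in no step.

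FPKM was computed from the count, the deposited gene length, and the total on named genes. TMM factors (0.968, 1.02, and 1.01) came from edgeR 4.0.16 in R 4.3.3, and size factors from DESeq2 1.42.0 were an alternative. Variation was tested by chi-square for genes with at least 10 counts and tested on simulated data. Poisson intervals cover counting error only. The other steps used pandas 2.3.3, SciPy 1.17.1, NumPy 2.4.6, and matplotlib 3.10.9 in Python 3.11.15. With 1 condition, no contrast was tested.

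The members and lists were chosen with earlier results of these data known. Named are all members, their family relatives, and from each list the 3 highest by mean FPKM and those not detected. No most similar genes were named, since 3 libraries of 1 condition give no pattern to compare. Alternatives covered the scaling, length, thresholds, test, and each library left out. In addition, 1 gene of the kinase cascade list is not reported here and was left out of its counts. Protein sequences were not used here.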

Additional observations from a re-analysis of the deposited data

How the results depend on the processing

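No paired analysis was possible because all 3 libraries belong to 1 group. The number of members that varied between libraries, 6 by the chi-square test, was 0 with edgeR's goodness of fit and 0 to 5 with 1 library left out, the 0 being without replicate 1. For the pathway lists the number, 29, was 0 with the goodness of fit and 0 to 28 with 1 library left out, the 0 again being without replicate 1. The biological coefficient of variation fell from 0.153 to 0.0531 without replicate 1. Scaling by total count lost *Spry1* (adjusted p = 0.0939) and *Spry2* (0.218) and gained *Dusp6* (0.0296) and *Spred1* (0.0473) in the chi-square test. When trends on gene length and GC content were subtracted, an alternative added after seeing the data, the replicate 1 log2 ratio of *Spry2* reversed to -0.16. The number of members at 1 FPKM or more, 9, was 8 at a threshold of 2 FPKM and 10 at 0.5 FPKM or at 1 TPM. With the length of the longest coding transcript, *Etv4* was at 18.3, *Dusp6* at 8.50, and *Spred1* at 15 FPKM, and the family shares of *Etv4*, *Etv5*, and *Dusp9* were 28.6%, 65.3%, and 35.7%. Apart from these, the members' levels and family shares moved by less than 1 SD. This holds for TMM and DESeq2 scaling, the transcript length, and each library left out. The members' single levels in TPM were not compared. The levels and shares of the family relatives, such as *Etv1* and *Spred3*, were not followed under the alternatives. Depth limits *Dusp4* and *Spry4*, which held 64 to 133 counts per library.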
